A study of Caenorhabditis elegans with 59 samples.

Results

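The most abundant piRNAs of gravid adult worms were followed in ebax-1 mutants and in the wild type. They were chosen by their wild-type level, as the piRNAs with at least 200 CPM (counts per 1000000 piRNA reads of the library) in each of the wild-type libraries. Of 15363 tabulated piRNAs, 1221 (7.95%) met this limit. Whole worms of strain CZ9907, which carries ebax-1(tm2321), a loss-of-function allele of a substrate receptor for an E3 ubiquitin ligase, and of the wild-type strain N2 were grown at 20°C and collected as gravid adults 68 h after starved L1 larvae were plated. Total RNA was used for sRNA-seq, with 2 libraries per genotype. In the libraries used here the mutation was examined in a single strain, so they cannot tell apart the allele and any other difference of that strain from N2. In whole animals, fewer germ cells and less RNA per cell cannot be told apart either.

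piRNAs of C. elegans, also called 21U-RNAs, are short RNAs that the PIWI-clade Argonaute protein PRG-1 carries in the germline. They guide PRG-1 to foreign and transposon-derived transcripts, which are then silenced with the help of secondary small RNAs. Most piRNAs come from dense gene clusters on chromosome IV, where each piRNA is transcribed as its own short precursor that is then trimmed.

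The libraries held 1722996 and 2703455 piRNA reads in the ebax-1 mutants and 2088539 and 3918670 in the wild type, so that 200 CPM stood for 345 and 541 reads in the mutants, against 418 and 784 reads in the wild type. Relative to the miRNA reads of the same library, there were 22.6 and 17.8 piRNA reads per 100 miRNA reads in the mutants and 19.7 and 19.1 in the wild type (exact permutation test, two-sided, p = 1). The 8 miRNAs of the miR-35–42 family, which are found in germline and embryos and whose decay is known to depend on EBAX-1, were all read. Their summed level was 111984 and 43989 CPM of miRNA reads in the mutants and 35363 and 21706 in the wild type. They are part of the miRNA total, so the denominator of the piRNA ratio itself differed between the genotypes. Of the somatic markers, muscle miR-1 lay between 21507 and 21760 CPM of miRNA reads in the mutants and between 21808 and 22825 in the wild type, and the neuronal pair miR-124 and lsy-6 summed to 2306 and 1996 in the mutants and 4266 and 3194 in the wild type. Intestinal miR-60 was at 15045 and 12778 CPM in the mutants and 12835 and 23950 in the wild type, and lin-4, a timing miRNA of the hypodermis, at 10163 and 17103 in the mutants and 15558 and 11993 in the wild type. The late larval and adult miRNAs let-7, miR-84 and miR-241 summed to 17057 and 19026 CPM in the mutants and 17492 and 18984 in the wild type. No marker was at 0 in any library. The part of these markers in the results was not tested.

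The abundant piRNAs took 53.0% and 41.3% of all piRNA reads in ebax-1 replicates 1 and 2, against 49.5% and 48.7% in wild-type replicates 1 and 2. The mutant libraries thus lay on either side of the wild type. The mean share was 47.2% ± 8.27 in the mutants and 49.1% ± 0.582 in the wild type (SD, n = 2 each), and the difference of -1.89 percentage points was smaller than the spread between the mutant replicates (exact permutation test, two-sided, p = 1, where 2 against 2 libraries cannot go below p = 0.333). Counting error was small beside this spread, with 95% exact binomial intervals of 52.9% to 53.1% and 41.3% to 41.4% in the mutants and 49.4% to 49.5% and 48.6% to 48.7% in the wild type; these intervals cover counting error only. Per 100 miRNA reads, the abundant piRNAs gave 12.0 and 7.36 reads in the mutants and 9.75 and 9.28 in the wild type (exact permutation test, two-sided, p = 1).

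Most of the abundant piRNAs stayed abundant without ebax-1. In the mutants, 1125 (92.1%) of them reached 200 CPM in replicate 1 and 1044 (85.5%) in replicate 2, and 958 reached it in all 4 libraries. Read the other way, the same limit applied to the mutant libraries chose 1024 piRNAs, of which those 958 are 93.6% and make up 78.5% of the wild-type choice. The median level of the abundant piRNAs was 366 and 299 CPM in the mutants and 342 and 330 CPM in the wild type, and the highest level of any of them was 2111 and 1515 CPM in the mutants and 1678 and 1801 CPM in the wild type. Every one of them was read in every library, with a lowest count of 79 and 60 reads in the mutants and 418 and 784 reads in the wild type.

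The levels fell off gradually, and no small group of piRNAs dominated. To reach 50% of all piRNA reads took 1048 and 1564 piRNAs in the mutants, against 1228 and 1270 in the wild type, and the 10 most abundant piRNAs together gave 1.57% and 1.12% of reads in the mutants and 1.38% and 1.45% in the wild type. The share of reads by abundance class showed where mutant replicate 2 stood apart. The 60 piRNAs at 800 CPM and over took 6.78% and 4.82% of reads in the mutants and 6.11% and 6.12% in the wild type. The 1897 piRNAs between 50 and 100 CPM, below the limit, took 12.0% and 16.6% in the mutants and 13.6% and 13.7% in the wild type. In each of the classes of 200 CPM and over, mutant replicate 1 had the largest share of the 4 libraries and mutant replicate 2 the smallest, and in each class between 20 and 200 CPM this order was turned round.

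**Figure D1:**
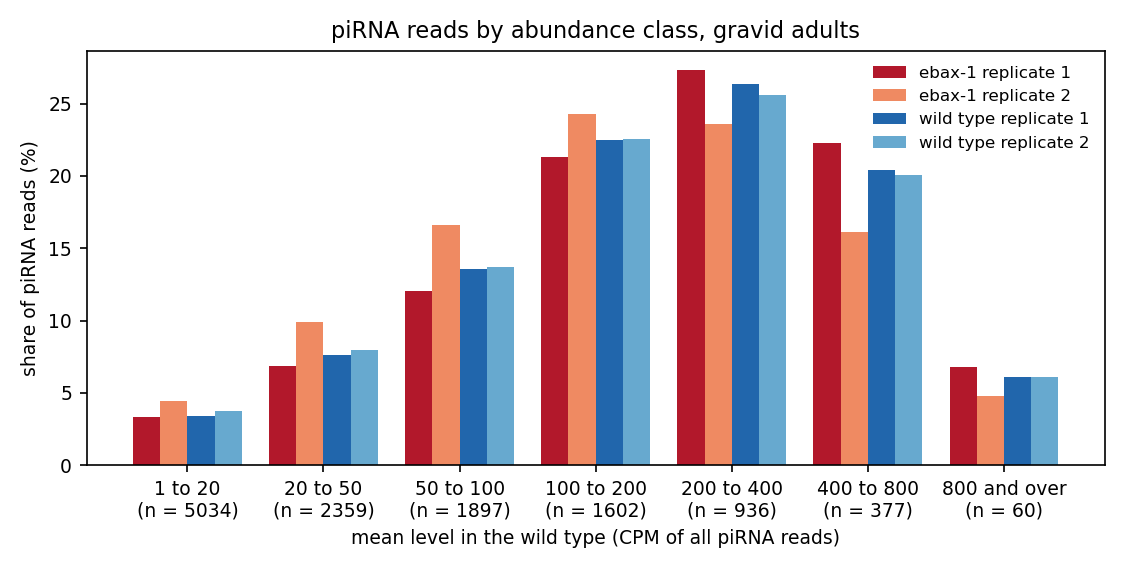
Share of all piRNA reads (%, y axis) in classes of piRNAs by their mean wild-type level (CPM, x axis, with the number of piRNAs), 1 bar per library, ebax-1 libraries left of wild-type libraries. At 400 to 800 CPM the ebax-1 libraries took 22.3% and 16.1% of reads and the wild-type libraries 20.4% and 20.1%, whereas the classes under 200 CPM had their largest share in ebax-1 replicate 2.

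The piRNA with the highest mean level over the 4 libraries was 21ur-4854, with 2111 and 1214 CPM in the mutants and 1645 and 1763 CPM in the wild type. It lies at chrIV:14311876-14311896 (WBcel235), on the minus strand, in an intron of Y64G10A.7 that is transcribed from the opposite strand. Its mutant values enclosed both wild-type values. 21ur-1793 had 1656 and 1515 CPM in the mutants, against 1678 and 1801 CPM in the wild type, and 21ur-4748 had 1118 and 1458 CPM in the mutants, against 1522 and 1532 CPM in the wild type. These piRNAs lie 816 bases apart on the plus strand (chrIV:14495458-14495478 and chrIV:14494642-14494662), in tag-273 and opposite to it, and were the only piRNAs of the leading 10 with both mutant values below both wild-type values. The fitted differences were small beside their errors, with a log2 fold change of -0.17 (SE 0.50) for 21ur-1793 and -0.30 (SE 0.49) for 21ur-4748 (edgeR, adjusted p = 1.00 for each). Each SE was derived from the F statistic of the test, which borrows its variance across piRNAs. It is therefore not the replicate scatter of the single piRNA.

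The other leading piRNAs showed the order of the libraries again. 21ur-2145 (chrIV:16579499-16579519, minus strand, outside protein-coding genes) had 1682 and 1304 CPM in the mutants and 1420 and 1539 CPM in the wild type. 21ur-292 (chrIV:15421159-15421179, plus strand, outside genes) differed most between the mutant replicates, with 1757 and 907 CPM in the mutants against 1400 and 1402 CPM in the wild type. For 21ur-1848, 21ur-3122, 21ur-2923 and 21ur-5665, as for these, mutant replicate 1 was the highest of the 4 libraries and mutant replicate 2 the lowest. 21ur-4512 (chrIV:15906570-15906590) had 1425 and 1028 CPM in the mutants and 932 and 1361 CPM in the wild type and was the only one of the 10 that lies in an exon, a coding exon of srv-15, which encodes a predicted chemoreceptor, on the same strand. The log2 fold changes of all 10 lay between -0.30 and 0.08, and none passed the test. Without ebax-1 replicate 1, the log2 fold changes of 21ur-4854, 21ur-292, 21ur-3122 and 21ur-5665 were -0.66, -0.80, -0.70 and -0.74. Without ebax-1 replicate 2 they were 0.41, 0.43, 0.25 and 0.35. Such a fit has 1 mutant library and takes its error from the wild-type replicates, which differed less, so no call is drawn from it.

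**Figure D2:**
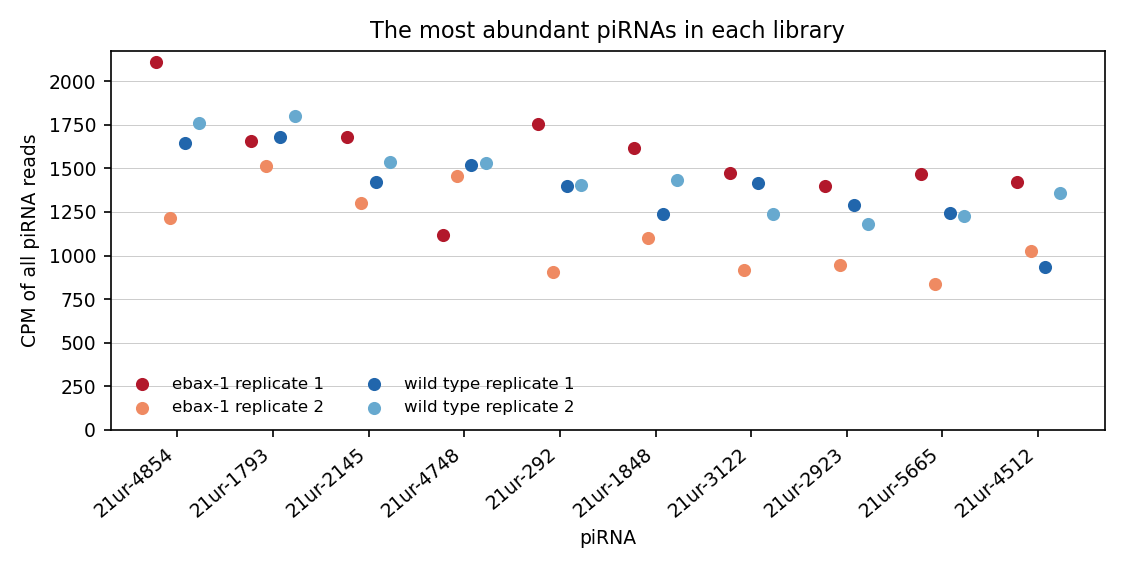
Level (CPM of all piRNA reads, y axis from 0) of the 10 piRNAs with the highest mean over the 4 libraries (x axis), 1 point per library, ebax-1 libraries left of wild-type libraries. For 21ur-4854 the ebax-1 points at 2111 and 1214 CPM enclose the wild-type points at 1645 and 1763 CPM, and in 9 of the 10 piRNAs, all but 21ur-4748, ebax-1 replicate 1 lies above ebax-1 replicate 2.

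Replicates of the mutants differed more than replicates of the wild type. Over the 1221 abundant piRNAs the median absolute log2 ratio of the replicates was 0.51 in the mutants and 0.17 in the wild type, and the median coefficient of variation was 24.8% in the mutants and 8.23% in the wild type, where counting error alone gives a median of 3.74% and 3.16%. Replicates were more than 1.5-fold apart for 521 (42.7%) of the abundant piRNAs in the mutants and 57 (4.67%) in the wild type, and more than 2-fold apart for 102 (8.35%) in the mutants and 2 (0.164%) in the wild type. The wild-type spread was limited by the choice itself, which asked for 200 CPM in each wild-type library, and the mutant spread was not. The 11223 other piRNAs that were read in every library, on which the choice set no such limit, had median absolute log2 ratios of 0.78 in the mutants and 0.33 in the wild type. With 1 difference per genotype, the spread itself has no replicates and was not tested.

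The mutant spread had a direction. Replicate 1 was the higher one for 933 of the 1221 abundant piRNAs in the mutants, at a median log2 ratio of 0.42, and for 622 in the wild type, at a median of 0.01. From 20 CPM up, the median log2 ratio of replicate 1 to replicate 2 moved with the wild-type level in the mutants. It was -0.71 at 20 to 50 CPM, -0.67 at 50 to 100 CPM and -0.20 at 100 to 200 CPM. Above the limit it was 0.32 at 200 to 400 CPM, 0.51 at 400 to 800 CPM and 0.56 at 800 CPM and over. In the wild type the medians of the same classes stayed between -0.08 and 0.03. The classes under 20 CPM did not follow this order. Their medians were -0.35 at 1 to 20 CPM and 0.06 at 0 to 1 CPM in the mutants, and -0.12 and -0.09 in the wild type. As a description across the 1221 abundant piRNAs, which share libraries, Pearson's r of log2 CPM was 0.68 between the mutant replicates and 0.89 between the wild-type replicates. Mutant replicate 1 had r = 0.86 with wild-type replicate 1 and 0.91 with wild-type replicate 2. Mutant replicate 2 had r = 0.80 and 0.81 with the wild-type libraries.

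Single piRNAs showed how far the mutant replicates parted. 21ur-7489 (chrIV:16283674-16283694) had 544 and 161 CPM in the mutants, a 3.38-fold ratio, and 402 and 445 CPM in the wild type. 21ur-5634 (chrIV:15249803-15249823) parted the other way, with 127 and 382 CPM in the mutants and 347 and 207 CPM in the wild type. 21ur-5768 followed the majority, with 388 and 136 CPM in the mutants and 284 and 315 CPM in the wild type. None of the 3 passed the test. Without ebax-1 replicate 1 the log2 fold changes of 21ur-7489 and 21ur-5768 were -1.56 and -1.31, and without ebax-1 replicate 2 that of 21ur-5634 was -1.02. Among the abundant piRNAs only 21ur-4157 and 21ur-3570 were more than 2-fold apart in the wild type, at 633 and 298 CPM and at 676 and 328 CPM in wild-type replicates 1 and 2, where the mutants had 242 and 260 CPM and 481 and 362 CPM.

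**Figure D3:**
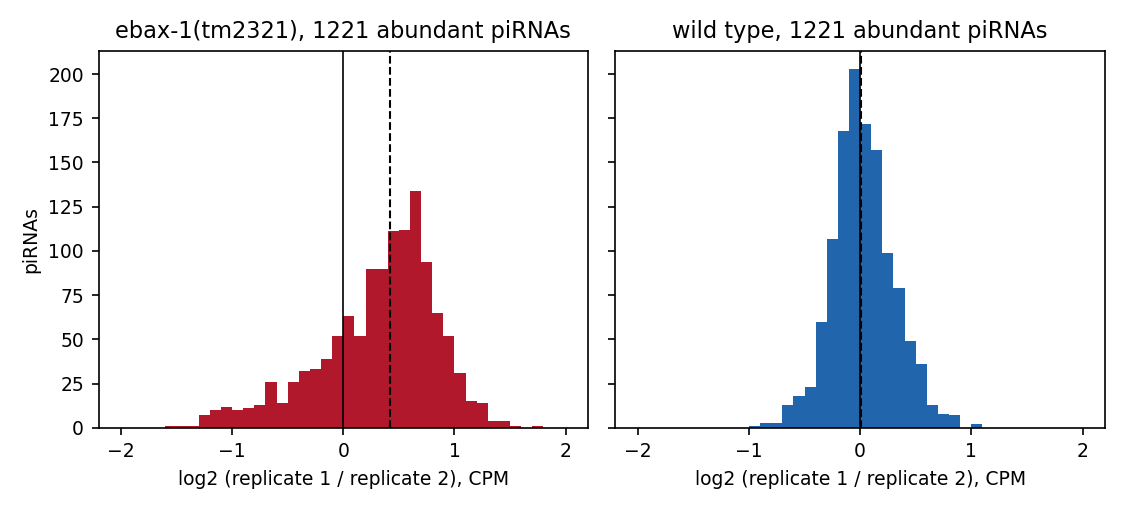
Number of the 1221 abundant piRNAs (y axis) by the log2 ratio of replicate 1 to replicate 2 (x axis, CPM), in ebax-1 (left panel) and the wild type (right panel). The dashed lines are the medians, 0.42 in ebax-1 and 0.01 in the wild type, and the solid lines mark equal replicates. The ebax-1 ratios spread more widely and lie mostly above 0.

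Of the 1221 abundant piRNAs, 3 fell in the ebax-1 mutants and none rose (edgeR quasi-likelihood test over the 12444 piRNAs that had a read in each of the libraries, Benjamini-Hochberg adjusted p under 0.05). Over all tested piRNAs 0.338% were called lower and 0% higher. Wild-type counts both chose the abundant piRNAs and form a side of this contrast, so the count is a description. At an unadjusted p under 0.05, 4 of them were lower and 0 higher, beside 3.14% lower and 0.571% higher over all tested piRNAs, and with DESeq2 3 passed as lower and 0 as higher, where 0.827% of the piRNAs that DESeq2 tested were lower and 0% higher. The test could separate little between these libraries: the median SE of a log2 fold change was 0.45 for the abundant piRNAs.

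The 3 piRNAs that fell were 21ur-6566, 21ur-5230 and 21ur-2943. 21ur-6566 had 45.9 and 22.2 CPM in the mutants, against 209 and 220 CPM in the wild type, or 79 and 60 reads in the mutants and 436 and 861 in the wild type. Its mutant and wild-type values were far apart, and it fell by 2.68 on the log2 scale (SE 0.48, edgeR adjusted p = 0.000296). It lies at chrIV:13974484-13974504, on the minus strand, in an intron of dnbp-1 on the strand of that gene. 21ur-5230, at chrIV:5097964-5097984 on the minus strand in an intron of C02B10.3, also on the strand of the gene, had 57.5 and 88.8 CPM in the mutants and 256 and 255 CPM in the wild type, and fell by 1.87 (SE 0.45, edgeR adjusted p = 0.0272). 21ur-2943, at chrIV:5107152-5107172 on the plus strand and outside protein-coding genes, had 76.6 and 96.2 CPM in the mutants and 311 and 261 CPM in the wild type, and fell by 1.78 (SE 0.45, edgeR adjusted p = 0.0349).

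These were also the lowest 3 of all abundant piRNAs in mean mutant level. In the wild type, 21ur-2943 ranked 812, 21ur-5230 ranked 981 and 21ur-6566 ranked 1188 of 1221. Of 9 alternative fits, 21ur-6566 passed in 7, with differences between -3.44 and -2.12 on the log2 scale, and it lost the call without either wild-type library (edgeR adjusted p = 1.00). 21ur-5230 (-2.05 to -1.69) and 21ur-2943 (-1.91 to -1.63) passed in 4 of 9. They lost the call without either wild-type library (edgeR adjusted p = 1.00), with column totals alone (0.0522 each), with the replicate number as a block (0.213 each) and with the block crossed (0.0566 for 21ur-5230 and 0.0862 for 21ur-2943). The fit without ebax-1 replicate 1 called 160 abundant piRNAs lower and 0 higher, where 3.69% of all tested piRNAs were lower and 1.16% higher, and the fit without ebax-1 replicate 2 called 5 lower and 0 higher, where 1.62% were lower and 0.161% higher.

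**Figure D4:**
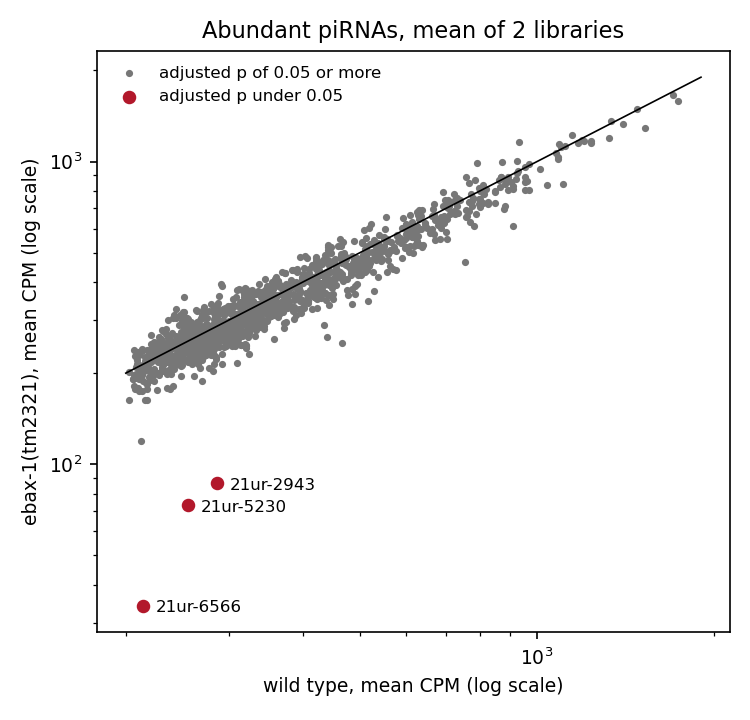
Mean level of each of the 1221 abundant piRNAs in ebax-1 (y axis) against the wild type (x axis), both the mean CPM of 2 libraries on log scales, with the line of equal levels. The red points are the 3 piRNAs with an adjusted p under 0.05 in the edgeR test over all piRNAs. They lie at 34.0, 73.1 and 86.4 CPM in ebax-1, against 214, 256 and 286 CPM in the wild type, and 1205 of the 1221 points lie within 0.5 log2 fold change of 0.

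The piRNAs that fell lie in 2 places of chromosome IV. 21ur-5230 and 21ur-2943 lie 9.19 kb apart in a stretch of chromosome IV, 4.7 to 5.3 Mb, that holds 668 tabulated piRNAs. Of these 668, only 21ur-5230 and 21ur-2943 reached 200 CPM in both wild-type libraries, while 5 others reached it in one of them. The stretch was set with round limits around an interval that the study found from piRNAs lowered in these same libraries. Its shares and counts of lowered piRNAs are therefore a description and no independent result about position. All piRNAs of this stretch together gave 0.425% and 0.604% of piRNA reads in the mutants and 1.33% and 1.49% in the wild type. Of the 42 piRNAs called lower among all 12444, 38 lie in this stretch, 4 are 21ur-6566 itself and piRNAs close to it, and 0 lie elsewhere. Within 20 kb of 21ur-2943, and counting it, 53 of 60 tested piRNAs had a log2 fold change under -1, and 8 passed the test. The study reports that the piRNAs of its interval were not similarly lowered in gravid adults of an independent ebax-1 allele. It proposes a mutation outside ebax-1 in the tm2321 line as the source of their fall. The other allele was not examined here.

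21ur-6566 lies 8.87 Mb from 21ur-2943, inside the large cluster that holds most abundant piRNAs. Its neighbours were looked at after its value was seen. Of 85 tested piRNAs within 20 kb, itself included, 7 had a log2 fold change under -1, from -2.68 to -1.86. These 7 lie between positions 13971956 and 13979423, a span of 7.47 kb, and no other tested piRNA lies inside it. The span was drawn from these fold changes, so values outside it could not lie under -1. The 34 tested piRNAs before them had a median of -0.08 (lowest -0.91) and the 44 after them a median of -0.05 (lowest -0.89). The nearest tested piRNA before the 7, 21ur-3206, ends 7.75 kb before the first of them and had a log2 fold change of -0.48, and the nearest after them, 21ur-12974, starts 1.49 kb beyond the last and had -0.53.

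The 7 lie on both strands, and 4 of them passed the test. 21ur-5985 had 43.5 and 26.3 CPM in the mutants, against 166 and 211 CPM in the wild type, and fell by 2.46 (SE 0.48, edgeR adjusted p = 0.00163). 21ur-1080, which overlaps it on the other strand, had 17.4 and 37.7 CPM in the mutants and 106 and 133 CPM in the wild type, and fell by 2.18 (SE 0.49, edgeR adjusted p = 0.0171). 21ur-6895 had 9.29 and 15.9 CPM in the mutants and 62.2 and 52.3 CPM in the wild type, and fell by 2.23 (SE 0.54, edgeR adjusted p = 0.0272). For 21ur-7241, 21ur-4308 and 21ur-8253 the mutant values also lay below both wild-type values, and the adjusted p were 0.0513, 0.0571 and 0.0706. Only 21ur-6566 reached 200 CPM in both wild-type libraries, and 21ur-5985 reached it in one of them.

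**Figure D5:**
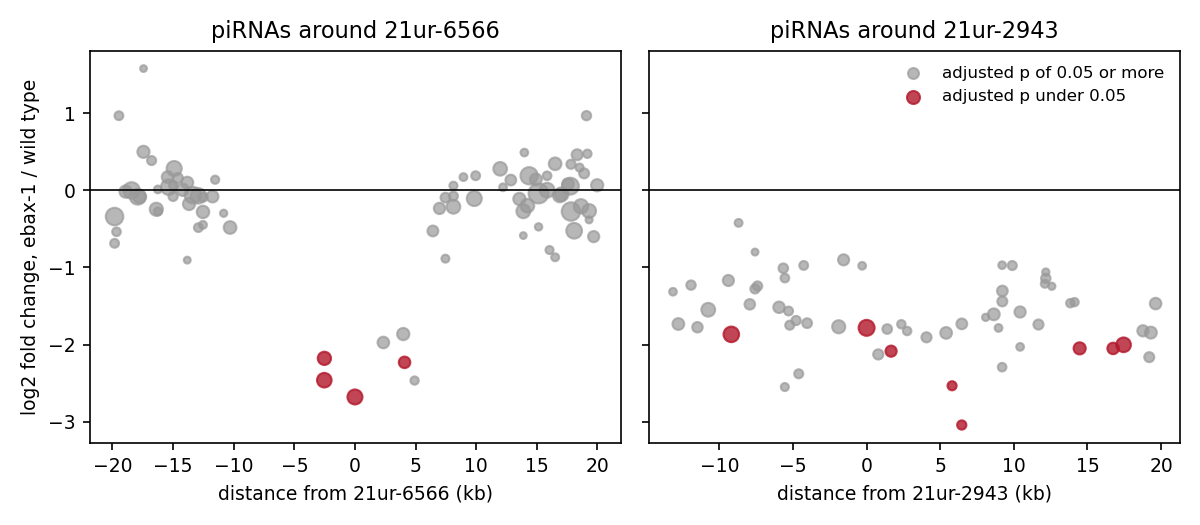
Log2 fold change of ebax-1 over wild type (y axis) for every tested piRNA within 20 kb of 21ur-6566 (left panel) and 21ur-2943 (right panel), by distance in kb along chromosome IV (x axis). Point area grows with the wild-type level, and red points have an adjusted p under 0.05. Around 21ur-6566 only 7 piRNAs over 7.47 kb lie under -1, and around 21ur-2943 there are 53 of 60.

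The log2 fold changes of the abundant piRNAs had a median of -0.08, beside 0.01 over all tested piRNAs, and 1205 of 1221 lay within 0.5 of 0 on either side, which left 13 beyond it besides the 3 called. The median followed the mutant libraries, at -0.45 without ebax-1 replicate 1 and 0.22 without ebax-1 replicate 2. Both mutant values lay below both wild-type values for 98 abundant piRNAs (8.03%), beside 9.99% of all tested, and above both for 44 (3.60%), beside 9.65% of all tested.

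After the 3 called piRNAs, 21ur-4157 had the lowest fold change among those whose groups did not overlap, -0.94 (SE 0.45, edgeR adjusted p = 1.00), with 242 and 260 CPM in the mutants and 633 and 298 CPM in the wild type. 21ur-3733 (chrIV:13629642-13629662, in an intron of sru-21) had 143 and 95.8 CPM in the mutants, against 213 and 212 CPM in the wild type. 21ur-3204 (chrIV:13639937-13639957, in an intron of ugt-22, a predicted glucuronosyltransferase gene) had 311 and 215 CPM in the mutants, against 384 and 495 CPM in the wild type. 21ur-5522 and 21ur-5274 followed, with log2 fold changes of -0.75 and -0.59. None of these 5 passed the test with all libraries. Without ebax-1 replicate 1, the log2 fold changes of 21ur-4157, 21ur-3733, 21ur-3204 and 21ur-5274 were -1.01, -1.32, -1.20 and -1.43. Without ebax-1 replicate 2, that of 21ur-5522 was -0.83. The wild-type replicates of 21ur-4157 were themselves 2.12-fold apart.

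On the other side, 21ur-430 (chrIV:16453648-16453668) had the highest fold change of all abundant piRNAs, 0.44 (SE 0.44, edgeR adjusted p = 1.00), with 306 and 406 CPM in the mutants and 264 and 239 CPM in the wild type. It ranked 509 of 1221 in the mutants and 1003 in the wild type. 21ur-2709 had 320 and 466 CPM in the mutants, against 269 and 312 CPM in the wild type, and 21ur-124 had 277 and 372 CPM in the mutants, against 233 and 254 CPM in the wild type. The most abundant of the 8 with the highest fold changes and no overlap was 21ur-3876 (chrIV:14183567-14183587), with 1125 and 854 CPM in the mutants and 779 and 801 CPM in the wild type. The log2 fold changes of these 8 lay between 0.29 and 0.44, each with an SE of at least 0.44, and none passed the test.

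At the limit itself, 21ur-4231 and 21ur-1684 lay just inside, each with 784 reads in wild-type replicate 2. 21ur-4231 had 110 and 284 CPM in the mutants and 245 and 200.1 CPM in the wild type, and 21ur-1684 had 185 and 226 CPM in the mutants and 224 and 200.1 CPM in the wild type. 21ur-2586, also just inside, had 165 and 292 CPM in the mutants and 200.1 and 214 CPM in the wild type. Just outside lay 21ur-5358 with 241 and 142 CPM in the mutants and 237 and 199.8 CPM in the wild type, 21ur-1935 with 345 and 169 CPM in the mutants and 199.7 and 309 CPM in the wild type, and 21ur-1331 with 132 and 257 CPM in the mutants and 213 and 199.3 CPM in the wild type. The piRNAs on either side of the limit thus differed by single reads in a wild-type library and by much more between the mutant replicates.

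All 1221 abundant piRNAs lie on chromosome IV, as do 14714 (95.8%) of the 15363 tabulated piRNAs. The clusters of chromosome IV contributed unequally: 1156 abundant piRNAs lie between 13 and 17 Mb, which is 10.4% of the 11072 tabulated there, and 27 between 4.5 and 7 Mb, or 0.959% of 2816. The remaining 38 lie beyond 17 Mb. In bins of 0.5 Mb the share of piRNAs that were abundant was highest between 14 and 16 Mb, at 11.4% to 12.0%, and it was 7.97% in the bin from 13.5 Mb and 6.74% in the bin from 16.5 Mb. In the smaller cluster it was 1.94% in the bin from 5.5 Mb and 0.606% and 0.586% in the bins beside it.

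The 25 abundant piRNAs of the smaller cluster outside the stretch from 4.7 to 5.3 Mb differed little, with a median log2 fold change of 0.06 and a range of -0.35 to 0.26. 21ur-4658, the most abundant of them (chrIV:5823238-5823258), had 550 and 533 CPM in the mutants, against 566 and 609 CPM in the wild type. 21ur-1272 (chrIV:5331932-5331952), the one nearest to the stretch, had 252 and 239 CPM in the mutants, against 317 and 290 CPM in the wild type. The mutant replicates were more than 1.5-fold apart for 0 of these 25, against 506 (43.8%) of the 1156 between 13 and 17 Mb. Their levels were lower on the whole, with medians of 306 and 266 CPM in the mutants and 243 and 285 CPM in the wild type. The 1156 had medians of 368 and 299 CPM in the mutants and 346 and 333 CPM in the wild type. Of all 784 abundant piRNAs with a wild-type mean of 200 to 400 CPM, 335 (42.7%) had mutant replicates more than 1.5-fold apart. The part of level or position in this difference was not tested.

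Strand and intronic position of the abundant piRNAs were close to those of all piRNAs, and the exonic share is given beside that of all piRNAs. The plus strand holds 637 (52.2%), as against 49.5% of all tabulated piRNAs, and the minus strand 581 (47.6%), as against 50.3%. Introns of protein-coding genes hold 403 (33.0%), as against 32.6% of all tabulated piRNAs, and 799 (65.4%) lie outside protein-coding genes, as against 61.3%. Exons hold 19 (1.56%), against 6.08% of all. Of the intronic ones with a strand, 203 of 402 (50.5%) lie on the strand opposite to the gene, beside 52.1% of all intronic piRNAs.

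Some genes hold several of them. All tabulated piRNAs were not counted per gene, so these numbers do not show whether a gene is rich in abundant ones. Y64G10A.7 holds 23, tag-273 18, jac-1, which encodes a p120 catenin homologue, 17, and Y105C5A.15 16, and 139 protein-coding genes hold at least 1. The 23 piRNAs in Y64G10A.7 had median levels of 528 and 334 CPM in the mutants and 474 and 432 CPM in the wild type, and together gave 1.34% and 0.957% of all piRNA reads in the mutants and 1.22% and 1.21% in the wild type. The 17 in jac-1 were less abundant, with medians of 323 and 226 CPM in the mutants and 300.2 and 278 CPM in the wild type. In both genes mutant replicate 1 was above and mutant replicate 2 below the wild type, as over the abundant piRNAs as a whole. The median log2 fold changes of the 4 genes' piRNAs lay between -0.14 and -0.05.

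All abundant piRNAs are annotated at a length of 21 nt, and the median distance between the starts of neighbouring ones was 1523 bases. Many share their place with weaker piRNAs. The choice by level largely fixes this direction, as only 7.95% of all tabulated piRNAs met the limit. Of the 1218 with an annotated strand, 520 (42.7%) overlap another tabulated piRNA on the same strand, close to the 40.4% of all piRNAs that do. In these 682 combinations the overlapping piRNA had a median level of 0.844% of the abundant one in the mutants and 0.773% in the wild type, and it exceeded 10% in 59 combinations in the mutants and 55 in the wild type. It started 1 base away in 301 combinations, 3 bases away in 238 and 4 bases away in 88, but 2 bases away in only 17. Because overlapping annotations share most bases and reads were counted as perfect matches to the full annotated length, a read could be assigned to only one of them.

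Pairs of abundant piRNAs that overlap were rare, with 3 in all. 21ur-4690 and 21ur-992 lie 3 bases apart on the plus strand (chrIV:15389243-15389263 and chrIV:15389246-15389266) and were of similar level. 21ur-4690 had 268 and 189 CPM in the mutants, against 222 and 215 CPM in the wild type, and 21ur-992 had 341 and 243 CPM in the mutants, against 365 and 274 CPM in the wild type. On opposite strands, 21ur-503 and 21ur-3414 share 20 bases in an intron of the chemoreceptor gene srt-48, and 21ur-807 and 21ur-4484 share 10. 21ur-503 had 308 and 366 CPM in the mutants and 21ur-3414 386 and 266 CPM, so that the piRNAs of this pair parted in opposite directions between the mutant replicates, where the wild type had 370.1 and 264 CPM for 21ur-503 and 373 and 308 CPM for 21ur-3414.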

How the data were processed

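sRNA-seq libraries of 2 ebax-1(tm2321) and 2 wild-type samples of gravid adults were used, with groups and replicate numbers from the sample labels. The study calls its replicates biological and took the gravid adult libraries over from earlier published work. The deposited piRNA values are raw counts: the authors trimmed adapters with cutadapt (version not given in the sources used here) and counted perfect matches to the whole length of each piRNA. The deposited miRNA counts of the same libraries served as marker levels and as a second library size. No column of values was left unmapped (0).

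CPM were computed over the piRNA total of the library. The members and lists were chosen with earlier results of these data known. piRNAs without a 0 in any library entered the quasi-likelihood test of edgeR 4.0.16 with TMM factors (R 4.3.3), adjusted over all of them by Benjamini-Hochberg, with DESeq2 1.42.0 as an alternative. The SE of an edgeR log2 fold change was its absolute value divided by the square root of the F statistic. Shares per library were compared by exact permutation. Positions are from Ensembl release 115 (WBcel235, also the build in the submitters' processing notes). There 12 names stand for 2 piRNAs each, and these 24, of which 3 were abundant, were placed by RefSeq without a strand. Named piRNAs are the 10 highest in mean CPM, up to 8 in each direction with the largest fold change and no overlap between genotypes, 3 on each side of the limit, those in chromosome IV 4.7 to 5.3 Mb, the 3 with the largest replicate ratio and the largest rank change per direction, and 21ur-1. The rest, such as neighbours and overlapping piRNAs, were named after their values were seen. Python 3.11.15, numpy 2.4.6, pandas 2.3.3, scipy 1.17.1 and matplotlib 3.10.9 were used. piRNA sequences, base composition and promoter motifs were not analysed here.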

Additional observations from a re-analysis of the deposited data

How the results depend on the processing

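The choice of members moved with its limit, with 2682 piRNAs at 100 CPM and 218 at 500 CPM, and leaving out a wild-type library gave 1375 to 1388. The count of abundant piRNAs lower in the mutants was 3, and 1 with column totals alone, with miRNA totals as library size and at a threshold of 0.01. It ranged from 0 (without either wild-type library) to 160 (without ebax-1 replicate 1), with 5 without ebax-1 replicate 2, and no abundant piRNA was called higher in any fit run. Over all piRNAs 42 were called, 79 with DESeq2, 2 with column totals alone and 2 at a threshold of 0.01, and leaving out 1 library gave 0 to 603, of which 144 were higher without ebax-1 replicate 1 and 20 without ebax-1 replicate 2. In a fit that left out a library, the genotype with 1 library was assumed to vary like the other, although the mutant replicates differed more. Counts of called piRNAs from such fits are therefore left out. The members' median log2 fold change ranged from -0.45 to 0.22 when a library was left out, and was 0.02 with miRNA totals as library size, where the median of all piRNAs was 0.10. The cause of these changes was not tested. Replicate numbers were shared by the genotypes, and the study matched libraries of the same replicate when it scaled miRNA counts. The deviations of same-numbered libraries had a correlation of -0.10 over 12444 piRNAs, which cannot show whether the libraries were prepared as pairs. The main test left the pairing out, and its calls rest on that choice. With the replicate number as a block, 1 abundant piRNA and 1 piRNA in all were called, and with the numbers crossed, a block added after seeing the data, 1 and 29. With TMM scaling in place of piRNA totals the replicate spread of the members was 0.71 in the mutants and 0.17 in the wild type. Over 34 named piRNAs with 9 alternative fits each, 249 values kept their direction and side of the threshold, 12 no longer passed, 12 newly passed (all with an ebax-1 library left out) and 33 changed sign, none of them past the threshold. With DESeq2 and with RLE scaling the log2 fold changes of 21ur-4854 were 0.0096 and 0.0095 and those of 21ur-2145 both 0.037, and 21ur-2145 had 0.013 with column totals alone. 21ur-1848 had -0.043 with the replicate block and -0.042 with it crossed. The other 26 sign changes came with a library left out, where the values ranged from -0.66 to 0.41 for 21ur-4854, -0.37 to 0.032 for 21ur-1793, -0.35 to 0.29 for 21ur-2145, -0.80 to 0.43 for 21ur-292, -0.44 to 0.38 for 21ur-1848, -0.70 to 0.25 for 21ur-3122, -0.55 to 0.28 for 21ur-2923, -0.74 to 0.35 for 21ur-5665, -0.32 to 0.42 for 21ur-4512, -0.056 to 0.65 for 21ur-4485, -0.056 to 0.61 for 21ur-3876, -0.92 to 0.18 for 21ur-4231, -0.19 to 0.0060 for 21ur-1684, -0.23 to 0.33 for 21ur-2586, -1.56 to 0.47 for 21ur-7489, -1.02 to 0.30 for 21ur-5634, -1.31 to 0.48 for 21ur-5768, -0.71 to 0.36 for 21ur-3570 and -0.39 to 0.60 for 21ur-3553. With 2 libraries per genotype, replication limits every call, and depth limits those of weak neighbours such as 21ur-8253, with a lowest count of 1 read. The planned motif search and base composition were not run.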

Other observations

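Of the 19 abundant piRNAs in exons, 12 lie in coding exons and 6 in untranslated regions. 21ur-5166 (chrIV:15891999-15892019), opposite to the 3' untranslated region of the predicted chemoreceptor gene srv-14, had 1060 and 533 CPM in the mutants, against 836 and 776 CPM in the wild type. 21ur-2686 (chrIV:16393960-16393980), opposite to a coding exon of Y65A5A.24, had the lowest log2 fold change of the 19, -0.58, with 749 and 478 CPM in the mutants and 982 and 837 CPM in the wild type, and did not pass the test. A pair of these piRNAs lies in coding exons of cnnm-1, a gene of the family of magnesium transport mediators. 21ur-3667 had 191 and 448 CPM in the mutants, against 309 and 325 CPM in the wild type, and 21ur-4718 had 194 and 473 CPM in the mutants, against 310 and 294 CPM in the wild type. In both, mutant replicate 2 was the highest library, unlike in most abundant piRNAs.

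The first numbered piRNA, 21ur-1 (chrIV:16687107-16687127), was far from the limit, with 3.48 and 0.740 CPM in the mutants and 1.92 and 2.81 CPM in the wild type, or 6 and 2 reads in the mutants and 4 and 11 reads in the wild type. No difference between the genotypes was detectable at this depth.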
